A study of Mus musculus with 3 samples.

Results

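The box H/ACA small nucleolar RNA (snoRNA) genes of these libraries are the genes whose symbol is Snora followed by a number, and 42 of the 55536 annotated genes in the deposited gene tables met that rule. They carry 40 symbols, since Snora16a and Snora43 each have 2 gene IDs that overlap on the genome. RNA of the chromatin fraction was sequenced after ribosomal RNA depletion from bone-marrow-derived macrophages of C57BL/6J mice, primary cells grown out of bone marrow. The macrophages had met Lipid A, the toxic part of bacterial lipopolysaccharide, at 100 ng per ml for 12 h, had been without it for 12 h, and were taken at minute 0 of a renewed exposure. There is 1 group of 3 libraries, called biological replicates 1 to 3 in the labels, and no untreated group, so the values are levels of this condition, with no response to Lipid A to be read from them. One donor identifier covers all of them and separate animals are not stated, so the spread between libraries may be partly technical. Age and sex were not collected.

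H/ACA snoRNAs fold into a pair of hairpins joined by a hinge that holds the H box, ANANNA (N stands for any base), and end in a tail with the ACA box. Most of them guide the conversion of uridine to pseudouridine in ribosomal or spliceosomal RNA, bound by dyskerin and its partner proteins, while a few take part in cutting the ribosomal RNA precursor. In mammals nearly all lie in introns of host genes, are trimmed out of the excised intron and begin to assemble with their proteins at the site of transcription, so that chromatin RNA can hold both the finished RNA and the unspliced host transcript around it.

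The sequences below show matches to the letters of the family's boxes in members on which the levels turn. Capitals mark an ANANNA match in the middle one of 3 equal parts of the transcript and the ACA that sits 3 bases before the end. Lower case letters are the rest of the annotated transcripts, 5′ to 3′. They are GENCODE M21 transcripts on mm10, with Snora73b at chr4:132352322-132352526 (minus strand) and Snora73a at chr4:132352775-132352979 (minus strand), the 2 highest members and near copies of each other. Snora26 at chr5:74093530-74093650 (plus strand) is the shortest member, Snora31 at chr14:75847905-75848034 (plus strand) and Snora30 at chr7:127527874-127528003 (plus strand) have the largest gaps between the 2 deposited quantifications, and Snora65 at chr2:32963291-32963420 (plus strand) lies inside host exons and was at 0 throughout. Snora65 has no ANANNA in that middle part, so only its ACA is in capitals. A further match in that part can stay in lower case, as aaagga does in Snora26.
Snora73b: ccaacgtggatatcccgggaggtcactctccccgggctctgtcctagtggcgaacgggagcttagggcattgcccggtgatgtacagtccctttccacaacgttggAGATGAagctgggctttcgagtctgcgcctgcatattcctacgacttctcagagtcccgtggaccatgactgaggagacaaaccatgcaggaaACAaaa
Snora73a: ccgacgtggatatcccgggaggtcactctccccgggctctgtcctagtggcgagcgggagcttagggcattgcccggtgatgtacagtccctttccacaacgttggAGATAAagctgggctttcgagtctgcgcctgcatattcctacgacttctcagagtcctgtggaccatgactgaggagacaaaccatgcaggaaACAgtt
Snora26: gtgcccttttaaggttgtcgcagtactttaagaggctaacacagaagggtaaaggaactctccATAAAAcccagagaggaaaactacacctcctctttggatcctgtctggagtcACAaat
Snora31: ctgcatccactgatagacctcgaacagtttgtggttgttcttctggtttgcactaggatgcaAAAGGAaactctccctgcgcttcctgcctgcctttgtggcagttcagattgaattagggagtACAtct
Snora30: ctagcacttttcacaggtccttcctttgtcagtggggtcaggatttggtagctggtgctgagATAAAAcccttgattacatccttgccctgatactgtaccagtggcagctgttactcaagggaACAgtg
Snora65: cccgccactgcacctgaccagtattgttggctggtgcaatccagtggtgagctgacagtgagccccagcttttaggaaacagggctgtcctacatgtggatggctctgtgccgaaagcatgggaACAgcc

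An ACA exactly 3 bases before the annotated end was found in 35 of 42 H/ACA genes (83.3%), in 0 of 99 box C/D snoRNA genes, the other large snoRNA family, and in 8.21% of 2876 other annotated transcripts of 121 to 205 bases. In 4 of the 7 members without it the ACA was 1 base nearer the end, and in Snora47 it was 1 base further away. An ANANNA box in that middle part was present in 39 of 42 members (92.9%), against 44.4% of box C/D genes and 64.6% of the other transcripts of those lengths, so by itself that short motif is common. Both features together occurred in 33 of 42 members (78.6%), in 0 of 99 box C/D genes and in 7.44% of the other transcripts. Among those other transcripts, 236 had the ACA and 214 had both features. Whether they include H/ACA RNAs under other names was not tested, so 8.21% and 7.44% cannot be read as chance rates. The motifs were searched on the transcript's own strand, and a match is a description of the letters, not of a bound protein. In folds predicted with RNAfold 2.7.2, the marked ANANNA lay outside both stems in 20 of 39 members, so a match need not be the H box. In the 35 members under 150 bases with a central box, the marked match began between positions 55 and 80, with a median of 62. Positions are counted from 1 at the 5′ end. In Snora73a and Snora73b the marked match began at position 107. Only the middle part was searched, so these positions are largely set by the search rule and do not locate the H box.

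Members are short, from 121 to 205 bases with a median of 132.5, and this bears on every level below. The size range given in the labels is 250 to 400. The gene table lists an effective length, the number of start positions left to a fragment, and it was under 5 bases in every library for 35 of 42 members. For Snora26, the shortest, it was 0 in every library, so that its TPM (a level scaled by effective length to a fixed sum per library) was listed at 0 beside 18.98, 15.99 and 14.98 expected counts in replicates 1, 2 and 3. Effective lengths were also largest in replicate 1: the 205 bases of Snora73b counted as 32.0, 17.3 and 20.4 in replicates 1, 2 and 3. Levels are therefore given as CPM (the expected count scaled to a common total of gene counts per library) and, between genes, as CPM per kb of annotated length.

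**Figure D1:**
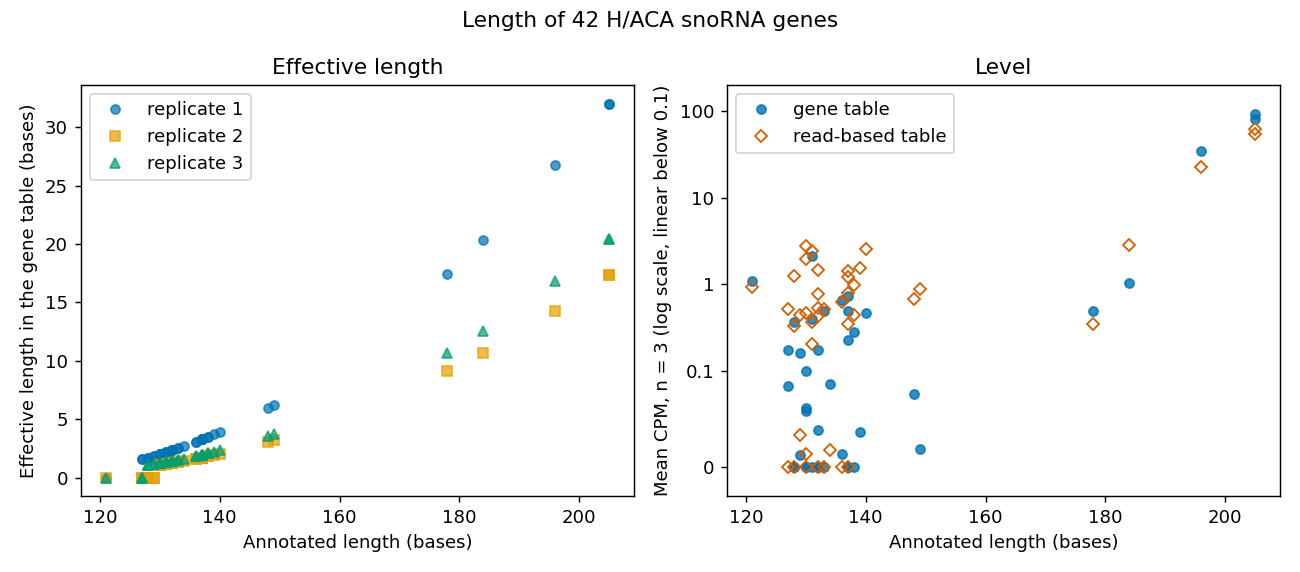
Left, effective length in the gene table against annotated length, both in bases, for 42 H/ACA snoRNA genes in each replicate. Right, mean CPM over 3 libraries (log scale, linear below 0.1) against annotated length in both quantifications; the 3 points at the far right are Snora74a, Snora73a and Snora73b, and every member under 150 bases stays below 3 CPM.

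H/ACA snoRNA genes held 3014.92, 3787.97 and 3575.24 expected counts in replicates 1, 2 and 3. That was 0.0255% (95% Wilson interval 0.0246% to 0.0265%), 0.0220% (0.0213% to 0.0227%) and 0.0184% (0.0178% to 0.0190%) of all gene counts, with a mean of 0.0220% ± 0.0036 (SD, n = 3). The intervals cover counting error only, and in the gene table they do not overlap between libraries. In the second, read-based quantification the shares were 0.0204%, 0.0157% and 0.0149% in replicates 1, 2 and 3. There the intervals of replicate 2 (0.01530% to 0.01618%) and replicate 3 (0.01448% to 0.01531%) do overlap. Depth was 11802407, 17201281 and 19428384 gene counts, so that 3 counts, the most that a 0 allows, equal 0.254, 0.174 and 0.154 CPM. Most of the family's counts in the gene table came from its 3 longest members, Snora73a, Snora73b and Snora74a, with 94.5%, 96.3% and 95.7% of them.

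All 10 macrophage markers checked were at 1 CPM or more in every library, with summed levels of 1968, 2032 and 1863 CPM in replicates 1, 2 and 3. The 11 fibroblast and stromal markers summed to 16.5, 14.3 and 2515 CPM, so replicate 3 stands apart; 5 of the 11 were at 0 in replicate 1, 2 in replicate 2 and none in replicate 3. Starting RNA was 1 µg, 250 ng and 500 ng. In such bulk samples, fewer cells of a type and less RNA per cell cannot be told apart. Each result that compares libraries is given per library for this reason, and the part that these differences play in it was not tested.

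Snora73a and Snora73b stood far above the rest in CPM and in CPM per kb. They are the vertebrate RNAs that act in early cleavage of the ribosomal RNA precursor on the path to the small subunit. Snora73b was at 113, 88.7 and 77.8 CPM in replicates 1, 2 and 3, a mean of 93.3 ± 18.3 CPM (SD, n = 3) or 455 CPM per kb. Snora73a was at 82.8, 93.9 and 68.5 CPM, a mean of 81.8 ± 12.7 CPM or 399 CPM per kb. The pair overlapped, with the ratio of Snora73a to Snora73b at 0.730, 1.06 and 0.881, so that replicate 2 alone had more Snora73a. Their sequences are 96.6% identical, with 7 mismatches in 205 bases, and the split of reads between them is uncertain for that reason. Summed, they were at 196, 183 and 146 CPM (175 ± 25.8).

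Both lie within the long non-coding host gene Snhg3, Snora73b in introns only and Snora73a partly in an exon. Snhg3 overlaps Rcc1, a regulator of the small GTPase Ran. Snhg3 was at 1.73, 1.49 and 2.11 CPM and Rcc1 at 4.74, 4.94 and 5.87 CPM. Per kb of annotated length, Snora73b was 124 times and Snora73a 109 times the level of Snhg3. Snora74a was the third highest member, at 45.1, 29.6 and 29.9 CPM in replicates 1, 2 and 3 (34.9 ± 8.87, or 178 CPM per kb), with replicate 1 above the other two. Its smallest host gene by annotation, AC121821.1, averaged 15.1 ± 1.61 CPM, or 13.7 CPM per kb, and the member was 12.9 times as high per kb. Only 5 of the 38 members with a host exceeded that host per kb in the gene table and 9 of 38 in the read-based table; Snora26 and Snora78 were the other members above it in the gene table.

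Below Snora73b, Snora73a and Snora74a came a step in CPM to Snora68, at 2.95, 1.91 and 1.52 CPM (2.13 ± 0.735, or 16.2 CPM per kb). Effective lengths in replicates 1, 2 and 3 were 2.16, 1.13 and 1.31 bases for Snora68. For Snora74a they were 26.8, 14.3 and 16.8 bases. In deposited TPM the gap was far smaller, with Snora68 at 1366, 2056 and 1308 and Snora74a at 1690, 2528 and 1997. The part of length in the step was not tested. Snora26, in the long non-coding gene Dancr, was at 1.61, 0.930 and 0.771 CPM (1.10 ± 0.445). In CPM of the gene table, Snora68 and Snora26 were highest in replicate 1 and lowest in replicate 3. Snora23, in the gene of the nuclear import receptor Ipo7, had 18, 3 and 27 counts, or 1.53, 0.174 and 1.39 CPM, so replicate 2 was at the limit of 3 counts. Snora70, in the ribosomal protein gene Rpl10, was at 1.26, 0.595 and 0.360 CPM.

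The remaining members among the 10 highest per kb were under 1 CPM on average. Snora5c, in Tbrg4, was the steadiest of these in the gene table at 0.752, 0.624 and 0.595 CPM (0.657 ± 0.0837), from 8.88, 10.74 and 11.56 counts. Snora9, in Snhg15, was at 0.411, 0.630 and 0.456 CPM. Snora21, in the ribosomal protein gene Rpl23, was at 0.678, 0.407 and 0.412 CPM from 7 or 8 counts in each library. Read-based, Snora5c was at 0.630 ± 0.275, Snora9 at 0.516 ± 0.0202 and Snora21 at 1.43 ± 0.313 CPM, so Snora5c was not the steadiest there. Per kb in the gene table, neighbours among the 10 highest whose means differed by less than the larger of their SDs were Snora73b and Snora73a, Snora26 and Snora23, Snora23 and Snora70, Snora70 and Snora5c, and Snora9 and Snora21.

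In all, 6 of 42 members reached a mean of 1 CPM, and 3 reached 10 CPM. Of all annotated genes, which are mostly longer, 26.9% (14927 of 55536) reached a mean of 1 CPM. A further view by counts shows 9 members over 3 counts in every library, 9 over it in some libraries only, and 24 at or under it in every library, among which 12 had 0 counts throughout. The median member was at 0.656 CPM per kb, beside a median of 0 for box C/D genes and for all genes. Read-based, the medians were 4.11 for members, 1.68 for box C/D genes and 0.184 CPM per kb for all genes. The 9 genes with a Scarna symbol, a further class of small RNA, had medians of 0.138 CPM per kb in the gene table and 25.4 read-based. Of these 9 genes, 44.4% reached a mean of 1 CPM in the gene table and 77.8% read-based. The shares of members were 14.3% and 31.0%. Box C/D genes have a median length of 84 bases. In the gene table, none of the 458 snoRNA genes outside the family with at most 99 bases had a count. Their median effective length there was 0 in every library. The part of length in the box C/D median was not tested. The lowest members with any count were Snora62 (1 count, in replicate 2), Snora16a (0.83 counts, in replicate 3) and Snora33 (0.75 counts, in replicate 3). Snora64 and Snora7a, of the ribosomal protein genes Rps2 and Rpl32, averaged 0.0863 ± 0.0572 and 0.466 ± 0.286 CPM.

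**Figure D2:**
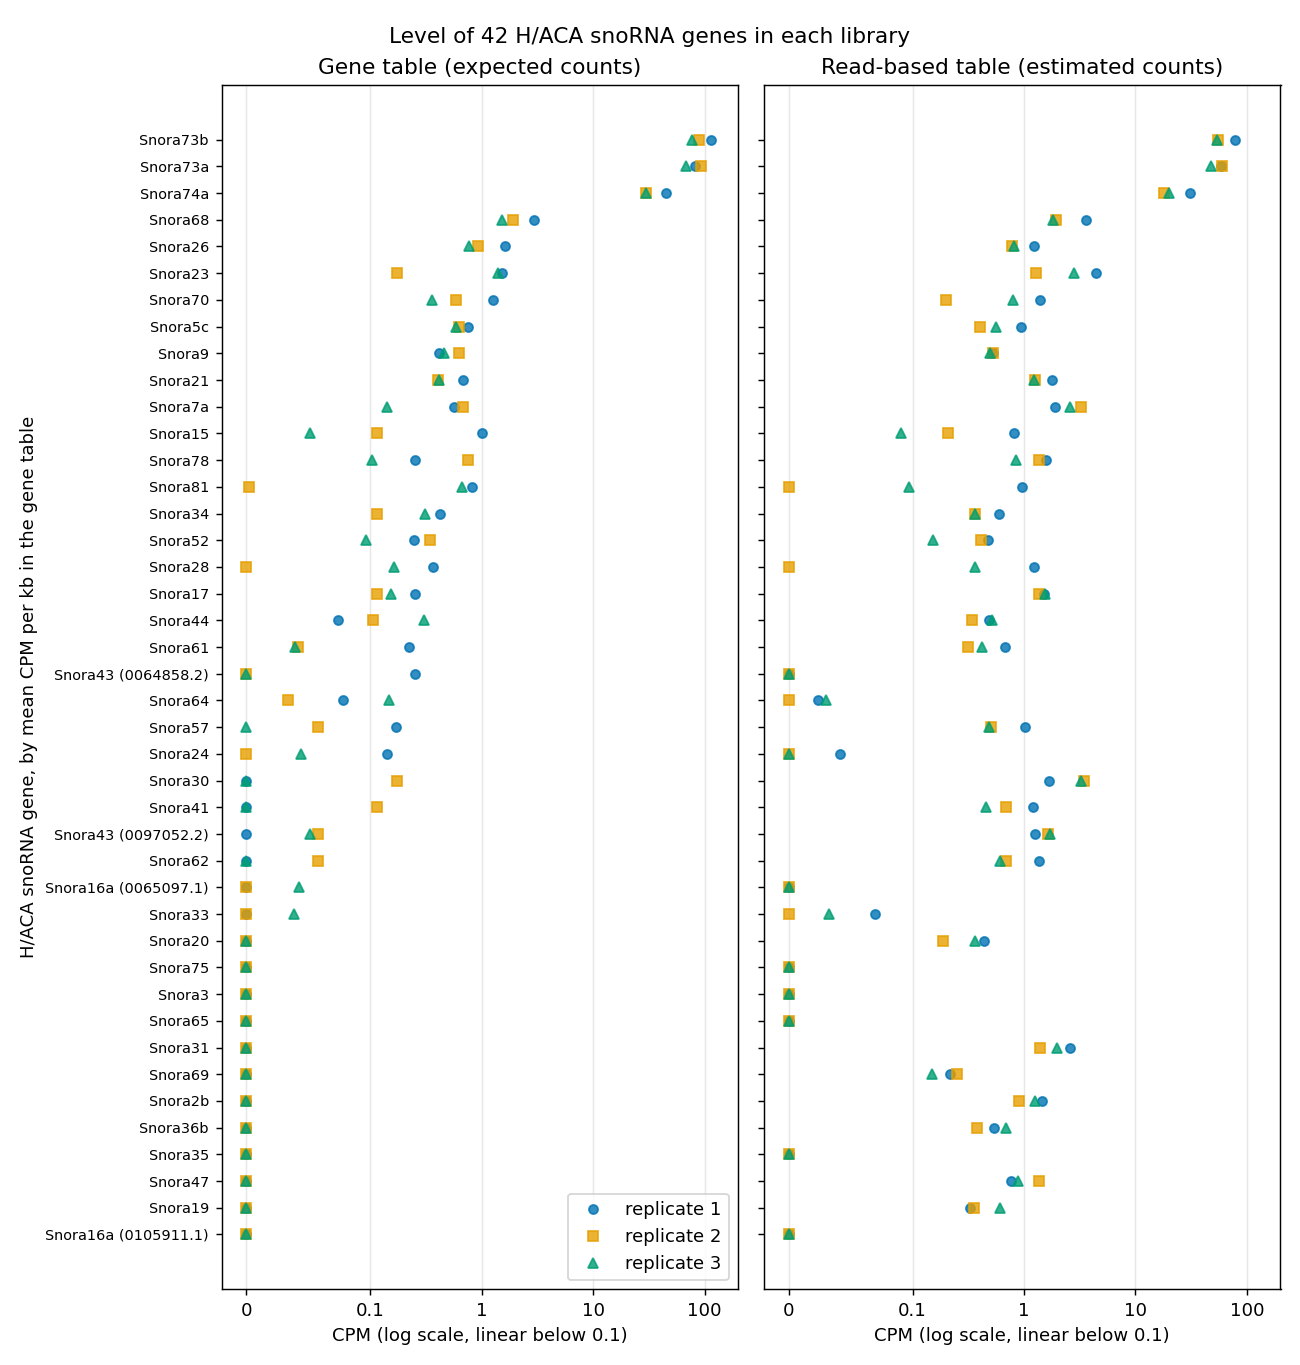
CPM (log scale, linear below 0.1) of 42 H/ACA snoRNA genes in each replicate, in the gene table (left) and the read-based table (right); genes run down the page by mean CPM per kb in the gene table. Snora73b, Snora73a and Snora74a stand apart in both panels, and 7 genes at 0 on the left have over 3 read-based counts in every library on the right.

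The read-based table, made by the authors from reads and an index without the alignment, gave another picture of the short members. It had 13 of 42 members (31.0%) at a mean of 1 CPM or more and 29 of 42 over 3 counts in every library. Of all annotated genes, 38.9% (21606 of 55536) reached a read-based mean of 1 CPM. Read-based CPM was above that of the gene table for 26 members and below it for 11. The 39 other members summed to 37.1, 25.8 and 28.0 read-based CPM in replicates 1, 2 and 3, beside 14.1, 8.05 and 7.86 CPM in the gene table. The 3 longest had lower values in it: Snora73b was at 78.0, 54.4 and 53.8 read-based CPM, Snora73a at 58.1, 59.2 and 47.3, and Snora74a at 30.6, 17.9 and 19.9. Among members with a mean of 10 counts or more in either table, these 3 had the lowest ratios of read-based to gene table level, with log2 values of -0.59, -0.57 and -0.61.

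Snora31 is the clearest case, with 0 expected counts in every library and 48, 44 and 65 read-based counts. It lies in an intron of Tpt1, which encodes a translationally controlled protein, and its read-based level was 2.61, 1.39 and 1.96 CPM. Snora30, in an intron of the chromatin remodeller gene Srcap and of the overlapping gene Gm42715, had 0, 3 and 0 expected counts beside 31, 110 and 107 read-based counts. Snora2b, in Kansl2, had none beside 26.9, 28.5 and 41.8. With 0.1 CPM added, the log2 ratios of read-based to gene table level were 4.38, 4.19 and 3.71 for Snora31, Snora30 and Snora2b, the largest among members with a mean of 10 counts in either table. Snora62, in an intron of Rpsa, had 25, 22 and 20 read-based counts, and Snora7a had 34.9, 104 and 85.0. The 2 tables agree on 5 gene IDs at 0 in every library, those of Snora3, Snora35, Snora65 and Snora75 and the longer ID of Snora16a. Of these, Snora35 lies in Htr2c, a serotonin receptor gene best known from brain, and Htr2c itself was at 0 CPM in every library of the gene table and at 0, 0.0315 and 0 read-based CPM in replicates 1, 2 and 3.

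Where a member lies in its host went with what the tables list for it. Of 42 members, 38 lie inside a protein-coding or long non-coding gene on the same strand, 33 hosts in all: 15 members in introns only, 4 partly in an exon and 19 wholly inside an exon of some host transcript. For 13 of those 19 that transcript is annotated as a retained intron. Among members under 150 bases, 12 of 13 in introns only had over 3 read-based counts in every library, against 8 of 17 inside an exon. Conversely 1 of 13 in introns only and 8 of 17 inside an exon were at or under 3 read-based counts in every library. The median read-based level was 0.780 CPM in introns only and 0.347 CPM inside an exon. In the gene table the medians ran the other way, at 0 and 0.101 CPM. These classes were set up after the values had been seen, so no test is given.

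**Figure D3:**
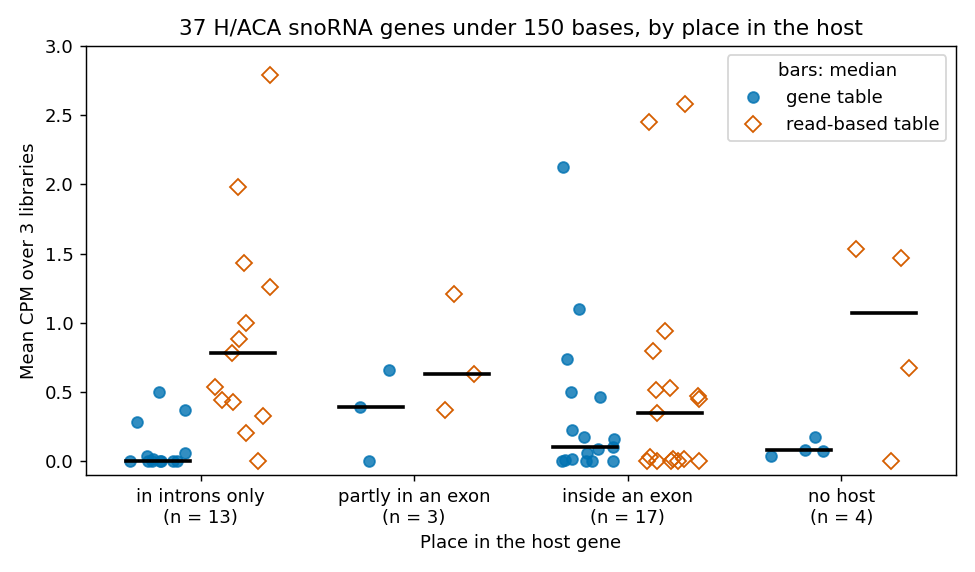
Mean CPM over 3 libraries of the 37 H/ACA snoRNA genes under 150 bases, by their place in the host gene, in the gene table (filled circles) and the read-based table (open diamonds); bars are medians and points are spread sideways for view. The read-based median is 0.780 CPM in introns only and 0.347 CPM inside an exon.

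Reads inside a host exon can belong to the member or to the host transcript, and the tables divide them by their own models. Snora65, shown above, is inside exons of 2 retained-intron transcripts of Rpl12, a ribosomal protein gene; these had 99.2, 206 and 220 and 70.2, 165 and 130 alignment-based expected counts in replicates 1, 2 and 3, while Snora65 had none. Snora3 is inside one of Rpl27a with 109, 234 and 193 expected counts and had none either. Snora81, inside an exon of a retained-intron transcript of the translation factor gene Eif4a2 with 651, 679 and 887 expected counts, had 9.69, 0.04 and 12.93. Snora74a, too, is inside an exon of a retained-intron transcript, one of AC121821.1 with 15.8, 23.1 and 26.9 expected counts, far fewer than its own 532, 509 and 580. How much of those host counts came from the snoRNA was not tested. The 2 IDs of Snora43 share 127 bases and those of Snora16a share 136, so their reads cannot be told apart. For the longer ID of Snora43 the gene table gave 0, 1 and 1 counts and the read-based table gave 23, 52 and 57, and for the shorter ID they gave 3, 0 and 0 counts and 0 in every library.

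Host genes were mostly well above the members in reads: 31 of 33 averaged 1 CPM or more, with a median of 24.9 CPM. By type, 11 members sit in ribosomal protein genes, 4 in translation factor genes, 11 in other protein-coding genes and 12 in genes annotated as long non-coding. Long non-coding hosts with more than 1 member are Snhg3, with Snora73a and Snora73b, and Snhg12, with Snora44, Snora61 and both IDs of Snora16a. Snhg12 was at 16.5, 16.5 and 15.8 CPM. Snora44 and Snora61 were at 0.161 ± 0.123 and 0.101 ± 0.105 CPM in the gene table and at 0.448 ± 0.0961 and 0.471 ± 0.189 CPM in the read-based table.

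Members in ribosomal protein genes were set beside those host genes between libraries. For the 5 such members with a mean of 10 read-based counts or more, Snora7a and Snora62 among them, the median log2 ratio was -0.71 for replicate 3 over 1 (1 of 5 higher) and -0.07 for replicate 3 over 2 (1 of 5). The 11 ribosomal protein hosts had read-based medians of 1.00 and 1.04, with 10 of 11 higher in replicate 3 in each pair. Over all classes of host, 24 members had medians of -0.53 for replicate 3 over 1 and 0.04 for replicate 3 over 2, beside 0.24 and 0.34 for the 33 hosts, so the members' medians in this class are near those of all members and the hosts' medians are above those of all hosts. In the gene table the ribosomal protein hosts gave 1.45 and 1.65 (11 of 11 higher in both). Snora7a was at 1.89, 3.28 and 2.57 read-based CPM in replicates 1, 2 and 3, while its host Rpl32 was at 6.12, 5.95 and 18.4 CPM in the same table. The stromal markers are high in the same library as these hosts, and their part was not tested. These are medians over few genes in 3 libraries, described with no test.

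**Figure D4:**
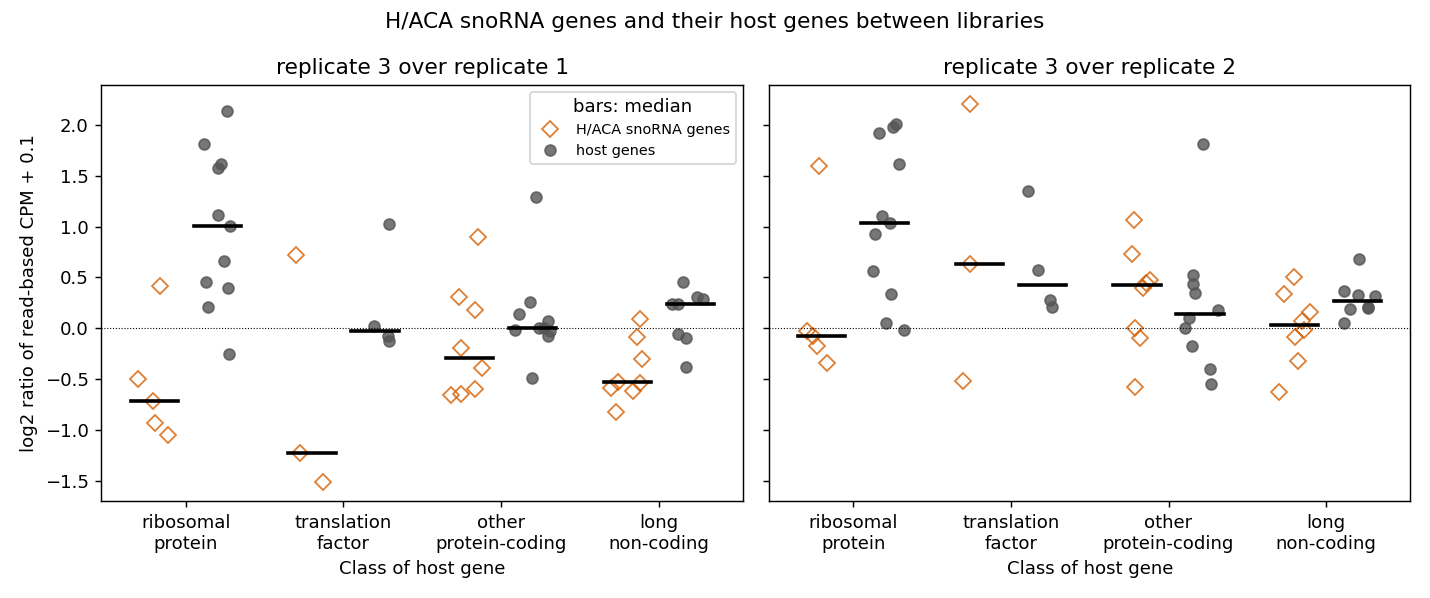
log2 ratio of read-based CPM (0.1 added) of replicate 3 over replicate 1 (left) and over replicate 2 (right) for H/ACA snoRNA genes with a mean of 10 read-based counts or more (open diamonds) and for their host genes (filled circles), by class of host; bars are medians. Ribosomal protein hosts have medians of 1.00 and 1.04, and the members in them -0.71 and -0.07.

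By their medians, members past a filter on low counts were highest in replicate 1, although Snora73a was highest in replicate 2 and Snora23 was far lower there than in either other library. Over the 8 members with a mean of 10 expected counts or more, the median log2 ratio of CPM with 0.1 added was 0.60 for replicate 1 over 2 (7 of 8 higher) and 0.57 for replicate 1 over 3 (8 of 8), beside 0.08 and -0.05 over the 16200 genes with that mean. Replicate 2 over 3 gave 0.22 (6 of 8), beside -0.14 over all such genes. These medians depend on the filter on counts: with all 42 members they were 0, 0.063 and 0 for replicates 1 over 2, 1 over 3 and 2 over 3. Read-based, with 27 members, the medians were 0.60 (20 of 27), 0.53 (19 of 27) and -0.07 (12 of 27). The last of the 3 thus changes sign between the tables. Over the 25456 genes with that read-based mean, the medians were 0.066, -0.030 and -0.106 in the same order. Positive ratios made up 57.1%, 44.7% and 33.7% of the 16200 genes in the gene table. Of the 25456 read-based genes they made up 56.5%, 46.6% and 34.8%. Replicate 1 also had the largest effective lengths for short RNAs and the most starting RNA, and their part was not tested.

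The spread of single members between libraries was set against that of all genes. edgeR's quasi-likelihood fit over 14839 genes called 0% of them more variable than the trend at an adjusted p under 0.05 (Benjamini-Hochberg), and 747 genes (5.03%) had an unadjusted p under 0.05. Its filter on low counts let 6 members through, Snora73a, Snora73b, Snora74a, Snora68, Snora26 and Snora5c; 0 of 6 were called and 0 of 6 had an unadjusted p under 0.05. The smallest was that of Snora74a (unadjusted p = 0.119, adjusted p = 0.992 by edgeR) and the largest that of Snora5c (0.890). DESeq2 marked 155 of the same genes as dispersion outliers and none of the 6. The members with the largest SD of log2(CPM + 0.1) among those with a mean of 10 counts were Snora23, Snora70, Snora26, Snora68 and Snora74a; of these Snora23 and Snora70 were left out by that filter. With 3 libraries a p above the threshold does not show that a member was steady.

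RNA of the genes for the proteins that bind H/ACA RNAs was counted in every one of the same libraries. Dkc1, encoding the pseudouridine synthase dyskerin, was at 15.7, 13.6 and 14.5 CPM in replicates 1, 2 and 3, or 10.4 ± 0.741 CPM per kb. Gar1, Nhp2 and Nop10, the genes of the other core proteins, were at 3.14 ± 0.768, 2.14 ± 0.709 and 0.924 ± 0.500 CPM per kb. Of the core genes Nhp2 and Nop10 were highest in replicate 3, at 2.88 and 1.65 CPM. Naf1 and Shq1, assembly factors that hold dyskerin before the mature particle forms, were at 1.23 ± 0.113 and 2.99 ± 0.297 CPM per kb, and Nolc1, which escorts snoRNPs through the nucleolus, was at 4.02 ± 0.602. The remaining assembly genes lay between 1.90 CPM per kb for Ruvbl2 and 13.0 for Tcof1. The box C/D core genes Fbl, Nop56, Nop58 and Snu13 were between 6.11 and 29.7 CPM per kb.

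Terc, the telomerase RNA, ends in an H/ACA domain but is no Snora gene. It had 2, 5 and 11 expected counts in replicates 1, 2 and 3, or 0.169, 0.291 and 0.566 CPM (0.342 ± 0.203), of which the first is under the limit of 3 counts.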

How the data were processed

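Chromatin RNA of 3 macrophage libraries of 1 group was analysed. Per the README texts deposited with each library, the authors made a gene table and a transcript table from a transcriptome alignment on mm10 with GENCODE M21, and a second transcript table directly from reads with an index. No aligner, counting tool or strandedness is given in these sources, which makes overlapping genes uncertain. The authors deposited expected counts as model estimates, fractions allowed and not normalized; the TPM values they deposited depend on effective length and were not used to rank genes. Annotated and effective lengths are those of the deposited gene tables.

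CPM was computed here over gene rows; rows naming no gene held 1.31%, 0.476% and 0.240% of the counts and were left out. Read-based transcripts were summed by gene ID, to totals of 18424513, 31740019 and 33143935. Depth sets the precision: 3 counts per library is the limit of a 0, and 95% Wilson intervals cover counting error only. Hosts are protein-coding or long non-coding genes of GENCODE M21 on the same strand that contain a member, the smallest where there are several. The variability fit took rounded expected counts into edgeR 4.0.16 under R 4.3.3 (TMM, filterByExpr, intercept only); DESeq2 1.42.0 gave size factors and dispersion outliers. Of these steps, only the variability fit was tested on simulated data, with shifts in 1 library placed in genes with a mean of at least 50 counts. It recovered 6% of 2-fold, 64% of 4-fold and 100% of 8-fold shifts. Only 3 members had that mean. Other steps ran in Python 3.11.15 with matplotlib 3.10.9, scipy 1.17.1, pandas 2.3.3 and numpy 2.4.6. No 2 libraries were duplicates: chi-square over degrees of freedom was 39.1 to 72.0.

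Members and gene lists were chosen with earlier results of these data known, and the length split, exon classes, host classes and middle-part rule for the ANANNA box after the members' values had been seen. Named are the 10 highest and 3 lowest members with a count, the 5 with the largest SD, the 3 largest gaps between the tables in each direction among members with a mean of 10 counts in either, and a fixed list of symbols. Alternatives were other scalings, filters, pseudocounts, the read-based table and leaving out each library. Snora63, on that list, is not analysed here, and the host of 1 named member is not reported here.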

Additional observations from a re-analysis of the deposited data

How the results depend on the processing

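The read-based table gave 13 members at a mean of 1 CPM or more, a share of 0.0170% and a median level of 4.11 CPM per kb, beside 6, 0.0220% and 0.656 in the gene table; the cause was not tested. Dividing by effective length where it was at least 1 base gave a median of 48.0 CPM per kb, by construction, since effective lengths are far below annotated ones. With no filter on counts the median log2 ratios were 0, 0.063 and 0 for replicates 1 over 2, 1 over 3 and 2 over 3, beside 0.60, 0.57 and 0.22, since members at 0 then enter. A mean of at least 50 counts gave 0.36 for replicate 1 over 2, and TMM scaling gave 0.33 for replicate 2 over 3; both moved by less than the SD over members, the only spread available for a ratio of 2 libraries. Scaling by TMM or over protein-coding and long non-coding genes moved the number of members at 1 CPM by less than 1.5 times and the median level by less than its SD over libraries. Leaving out 1 library gave 4 to 6 members at 1 CPM, shares of 0.0202% to 0.0238% and medians of 0.540 to 0.920 CPM per kb. Of 19 named members, the read-based level lay over 1 SD from the gene table's for 11.

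No member was called more variable under any setting run. edgeR called 49 genes with no filter but a count above 0, 10 in the read-based table, and 8, 0 and 73 without replicate 1, 2 and 3. Single members had an unadjusted p under 0.05 by edgeR in 3 of these settings. They were Snora81 of 30 members tested with no filter, Snora23 of 25 read-based and Snora73a of 6 without replicate 1. Over all genes, 1485 of 25532, 1125 of 24320 and 781 of 15260 had such a p in the same order. The smallest adjusted p of a member over the settings was 0.818, by edgeR. How the fit was set was settled after several settings had been run; bias-adjusted deviances, robust estimation, a common dispersion and no abundance trend were added after seeing the data, and all called 0 genes. At or under 3 counts in every library were 24 of 42 members in the gene table and, read-based, 10 of 42, so differences among these members were not detectable at these counts. No paired analysis was possible because there is only 1 group.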
